A study of Drosophila melanogaster with 12 samples.

Results

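X-linked proximal promoter peaks are stretches of accessible DNA within 1 kb of an annotated transcription start on the X chromosome of Drosophila S2 cells. They were the merged ATAC-seq peaks of X (genome build dm6) that started below position 21500000 and that the deposited annotation placed in the promoter class of up to 1 kb. The rule used no measured value and took 875 of the 10269 merged peaks of the series. The members started between positions 245681 and 21389961 and were annotated to 669 genes. They were set beside the 3879 proximal promoter peaks of the autosomal arms 2L, 3L and 3R (1189, 1227 and 1463), called autosomal promoter peaks here.

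S2 cells are a macrophage-like male line derived from Oregon-R embryos of Drosophila melanogaster. Serum-starved cells received insulin (10 µM in the study's methods, 10 M in the sample labels) or, as vehicle, HEPES buffer (25 mM, pH 8.2). They were collected after 4 h for ATAC-seq, which reads open chromatin by where a transposase can insert, and for RNA-seq after removal of ribosomal RNA. Each treatment had 3 samples per assay, all of this single line without a genetic change. The study calls its samples biological replicates, but the sources do not say whether they were separate cultures, so p-values measure only the spread between these samples, which may be technical. In bulk samples, fewer cells with a transcript and less RNA per cell cannot be told apart. The ATAC-seq values were the authors' mean normalized count over all samples and 1 peak list per treatment, so the ATAC-seq comparisons are descriptions without replicate error or test.

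The RNA-seq libraries held 7132065 to 10256535 counts. RNA levels are given as CPM, counts scaled to the effective library size. Of the markers of plasmatocytes, the macrophage-like cells of flies, Hml, eater, crq, Pxn, srp, Ppn, vkg and Col4a1 were in the count table. All of these but Pxn were lower after insulin. The plasmatocyte markers NimC1 and He were not in the count table. The phagocytic receptor crq was at 168, 176 and 168 CPM in insulin libraries, against 258, 264 and 263 CPM in vehicle libraries (log2 change -0.62, SE 0.04, edgeR adjusted p = 1.29e-18). Neuron, muscle and germline markers (nSyb, Syt1, Mhc, Act88F, vas, nos and bam) stayed at or under 1.44 CPM, while elav, a neuronal gene whose promoter is among the members, was at 60.5 to 64.7 CPM in insulin libraries and 52.8 to 59.0 CPM in vehicle libraries. The part of the marker change in the results below was not tested.

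Male flies carry a single X, and the dosage compensation complex raises the transcription of its genes. The complex holds the MSL proteins and either of the noncoding RNAs roX1 and roX2, which are themselves transcribed from X, and it first binds GA-rich sites of the X that the zinc finger protein CLAMP also recognises. Many housekeeping promoters of Drosophila carry the DNA replication-related element (DRE) or Motif 1, and GA repeats at promoters are bound by GAGA factor and by CLAMP.

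The sequences that carry these elements are shown first, each as 150 bases of dm6 on the strand of the named gene, 5′ to 3′. The roX1 and roX2 stretches lie inside those genes and hold GA-rich runs of letters, which were not tested as binding sites. The others come from the central 300 bp of members of genes described below for their RNA change, a mean count or a call after 1 treatment alone. The tlk stretch comes from a member with 287.5 counts, not from the tlk member with the highest count. Capitals mark GAGAG in roX1, GAGAG and GAGAGAGA in roX2, the GA repeat GAGAGAGA in tlk and sesB, the CA repeat CACACACA in Act5C and ras, both repeats in NetA and RhoGAP15B, and the DRE core TATCGATA in CG2691 and Nrg, on either strand.
roX1, chrX:3861227-3861376, minus strand: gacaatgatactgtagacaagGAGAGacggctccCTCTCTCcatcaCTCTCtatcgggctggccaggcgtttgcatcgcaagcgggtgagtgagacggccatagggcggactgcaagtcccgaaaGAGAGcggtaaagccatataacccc
roX2, chrX:11580165-11580314, plus strand: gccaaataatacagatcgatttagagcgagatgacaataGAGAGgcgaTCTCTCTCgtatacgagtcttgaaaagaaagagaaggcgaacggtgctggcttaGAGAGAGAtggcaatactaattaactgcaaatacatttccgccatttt
tlk, chrX:3748868-3749017, plus strand: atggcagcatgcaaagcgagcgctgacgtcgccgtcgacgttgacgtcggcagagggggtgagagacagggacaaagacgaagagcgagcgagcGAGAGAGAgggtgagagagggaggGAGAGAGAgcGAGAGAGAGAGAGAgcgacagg
Act5C, chrX:5899563-5899712, plus strand: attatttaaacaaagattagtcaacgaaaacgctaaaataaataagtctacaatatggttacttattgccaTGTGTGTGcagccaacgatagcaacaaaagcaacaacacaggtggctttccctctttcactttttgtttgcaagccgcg
sesB, chrX:10785247-10785396, minus strand: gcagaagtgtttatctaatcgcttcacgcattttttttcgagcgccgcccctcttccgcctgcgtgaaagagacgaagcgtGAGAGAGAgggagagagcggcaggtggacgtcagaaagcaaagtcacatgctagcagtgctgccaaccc
ras, chrX:10744806-10744955, plus strand: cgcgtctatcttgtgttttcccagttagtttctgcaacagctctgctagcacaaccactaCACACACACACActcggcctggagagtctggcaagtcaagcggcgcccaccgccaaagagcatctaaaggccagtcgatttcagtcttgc
CG2691, chrX:13624601-13624750, minus strand: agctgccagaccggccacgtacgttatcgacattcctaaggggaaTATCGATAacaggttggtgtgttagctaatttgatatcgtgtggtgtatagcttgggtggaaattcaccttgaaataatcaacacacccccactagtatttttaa
Nrg, chrX:8517263-8517412, plus strand: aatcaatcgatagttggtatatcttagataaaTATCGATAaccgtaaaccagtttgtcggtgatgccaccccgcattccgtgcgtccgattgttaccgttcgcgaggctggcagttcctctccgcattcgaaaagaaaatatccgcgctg
NetA, chrX:14653897-14654046, minus strand: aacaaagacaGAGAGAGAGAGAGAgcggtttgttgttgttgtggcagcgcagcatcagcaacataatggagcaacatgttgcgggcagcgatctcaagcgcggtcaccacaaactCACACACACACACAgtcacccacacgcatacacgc
RhoGAP15B, chrX:16943473-16943622, plus strand: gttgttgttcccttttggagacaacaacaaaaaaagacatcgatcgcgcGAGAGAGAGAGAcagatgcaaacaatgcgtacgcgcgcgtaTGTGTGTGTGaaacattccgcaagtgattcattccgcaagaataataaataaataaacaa

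The roX1 gene lies at chrX:3857230-3862697 on the minus strand, and its printed stretch held 5 matches. The roX2 gene lies at chrX:11579065-11580432 on the plus strand, and its stretch held 7 matches, with both strands and overlapping matches counted.

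GA repeats and CA repeats stood in a larger share of X-linked promoter peaks than of autosomal ones. Of the central 300-bp windows of the members, 74 (8.46%) held GAGAGAGA on either strand, against 5.41% of the autosomal windows (4.29% on 2L, 5.95% on 3L and 5.88% on 3R). CACACACA stood in 176 X windows (20.1%), against 11.01% of autosomal windows (9.67% on 2L, 10.6% on 3L and 12.4% on 3R). X exceeded each single arm for both repeats. The whole arms had the same order: among all 300-bp tiles, 2.43% on X and 1.57% on the autosomal arms held a GA repeat, and 8.81% and 5.51% a CA repeat. The ratio of X to autosomes for the GA repeat was 1.56 in peak windows and 1.55 in tiles, and for the CA repeat 1.83 in peak windows and 1.60 in tiles. The X excess in GA repeats at promoter peaks was thus about that of the chromosome as a whole. Members that did not span an annotated start held a GA repeat more often (31 of 252, 12.3%) than members that did (43 of 623, 6.90%), but over whole peaks the order turned, with 18.3% and 21.3%.

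The DRE core TATCGATA, a palindrome, stood in 52 X windows (5.94%) and in 3.58% of autosomal windows, with 0.987% of X tiles and 0.745% of autosomal tiles. Motif 1, GGTCACAC, stood in 4.91% of X windows and 4.67% of autosomal windows. The forkhead site GTAAACA, which FOXO, a factor that insulin signaling keeps out of the nucleus, can bind, stood in 6.86% of X windows and 8.84% of autosomal windows. The Myc E-box CACGTG stood in 4.46% of X windows and 4.15% of autosomal windows, and the TATA box letters TATAAA in 21.4% and 23.9%. The short element GAGAG stood in 44.9% of X windows and 40.8% of autosomal windows, and in 29.9% of X tiles and 30.1% of autosomal tiles, so that the shorter element did not share the X excess of GAGAGAGA over whole arms. The median GC content of the windows was 46.0% on X and 45.7% on the autosomal arms. A match is a run of letters and was not tested as a binding site.

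**Figure D1:**
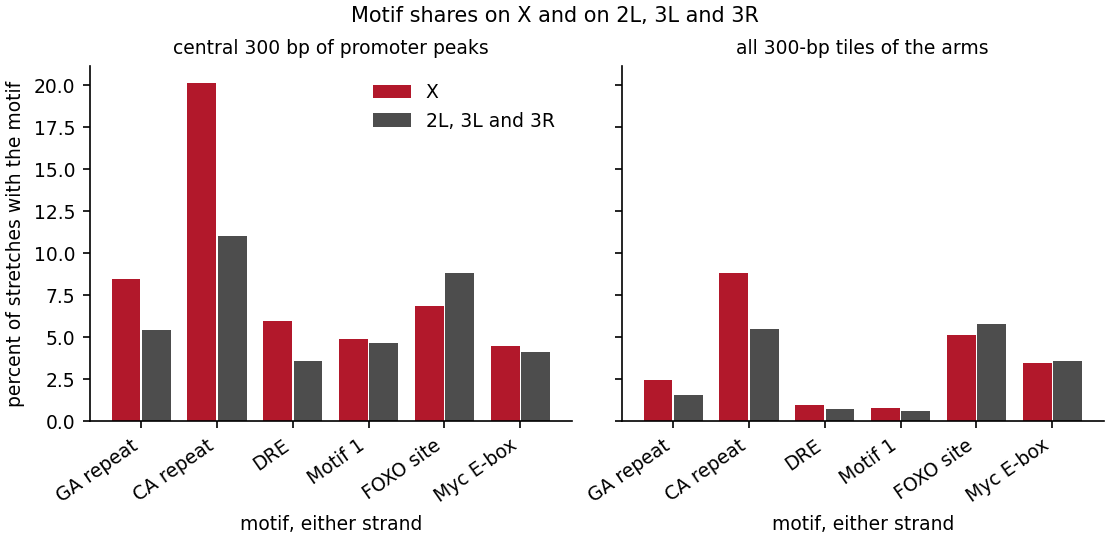
Percent of 300-bp stretches that hold each motif on either strand, for X and for 2L, 3L and 3R together, in the centre of proximal promoter peaks and in all tiles of the arms. GA repeats stood in 8.46% of X and 5.41% of autosomal peak windows, and in 2.43% of X and 1.57% of autosomal tiles.

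X-linked promoter peaks had lower ATAC-seq counts and were narrower than autosomal promoter peaks. The median of the authors' mean normalized count was 204.5 on X (quartiles 145.2 and 366.9) and 271.5 on the autosomal arms (179.0 and 469.4), a ratio of 0.753. Against single arms the ratio was 0.736 for 2L, 0.808 for 3L and 0.724 for 3R. The median width was 690.0 bp on X and 780.0 bp on the autosomal arms. The count followed the width, with a rank correlation across peaks of 0.970 on X and 0.964 on the autosomal arms, given as a description. Per kb of peak the medians were 314.6 on X and 358.9 on the autosomal arms, a ratio of 0.877, but the arms themselves differed, and X stood at 0.950 times the value of 3L. X was lower in each width class. Up to 500 bp the medians were 131.4 on X and 152.0 on the autosomal arms, and from 500 to 1000 bp 209.1 and 244.7. From 1000 to 2000 bp they were 388.9 and 461.8, from 2000 to 5000 bp 868.5 and 972.9, and above 5000 bp 2648 and 3209. The other X peaks, outside proximal promoters, had a median of 182.0, against 216.0 for other autosomal peaks. The counts were not corrected for the number of copies of each chromosome in the cells, and its part in these differences was not tested.

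**Figure D2:**
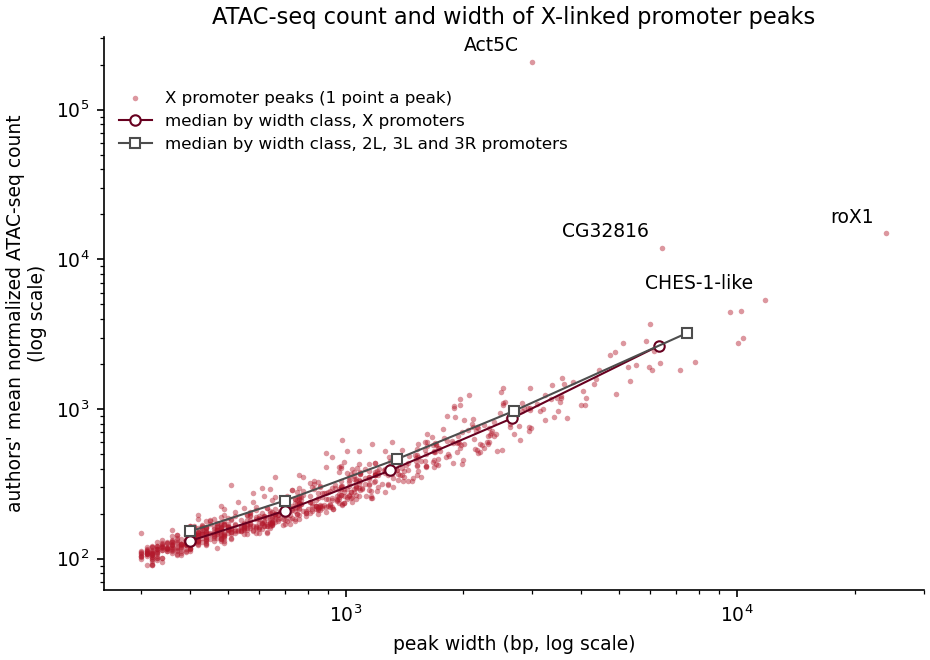
Authors' mean normalized ATAC-seq count of the X-linked promoter peaks against peak width in bp, both axes logarithmic, with medians by width class for X and for 2L, 3L and 3R. The X medians lie under the autosomal medians in all 5 classes, and the Act5C peak has 208530.5 counts.

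In consecutive stretches of 3 Mb along X the median count per kb lay between 305.3 and 332.9. The median count per peak ranged more widely, between 165.7 (12 to 15 Mb) and 293.1 (3 to 6 Mb), as did the median width, at 565.0 and 970.0 bp in these stretches. Of the members, 623 (71.2%) spanned an annotated start, against 75.1% of autosomal promoter peaks, while 102 lay upstream and 150 downstream. Starts of 2 or more genes fell in 157 members (17.9%), against 21.4% on the autosomal arms, and divergent starts in 120 (13.7%), against 16.8%. Protein-coding genes were the annotation of 830 members (94.9%), against 90.2% on the autosomal arms, and lincRNA genes of 24 (2.74%), against 6.60%.

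The members with the highest counts stood far from the median. The peak at the start of Act5C, a cytoplasmic actin gene (chrX:5898141-5901130), had a mean count of 208530.5, or 69743 per kb, and the highest score in both peak lists. The other Act5C member had 1459 counts and 404.0 per kb. Among autosomal promoter peaks the largest count per kb was 1001, and what made the Act5C value so high was not tested. The roX1 peak (chrX:3851441-3875540), at 24100 bp the widest member, had 14997 counts and 622.3 per kb and spanned the starts of CG2930 and yin as well. CG32816 followed with 11963 counts (1863 per kb), CHES-1-like, a forkhead gene, with 5372 and CG4766, a mab-21-like gene, with 4543. The peak of Ste:CG33237, with 4475 counts, spanned 7 starts of Stellate genes, and that of Ste12DOR had 3684. Stellate genes are repeated copies and reads with several matches had been placed at random, so both counts are uncertain. CG4025 (2994), Ir10a (2826) and tlk (2781) completed the 10 highest. At the low end were por (90.5), a peak of CG42684 (90.7), the start of Nrg (90.7), a peak of CG12728 (92.3) and CG2662 (95.5), all called after vehicle alone.

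A high ATAC-seq count went with very different RNA levels. RNA of Act5C was at 5135, 5200.4 and 5139.8 CPM in insulin libraries, against 6359.6, 6305 and 6146 CPM in vehicle libraries, and fell (log2 change -0.28, SE 0.03, edgeR adjusted p = 1.43e-12). RNA of CG32816 was at 0.10 to 0.72 CPM in insulin libraries and 0.55 to 0.86 CPM in vehicle libraries, under the filter for the test. CG4766 was at 63.0, 59.7 and 58.7 CPM in insulin libraries, against 93.2, 98.1 and 88.4 CPM in vehicle libraries, a fall (log2 change -0.62, SE 0.05, edgeR adjusted p = 1.05e-13). Over the 823 members whose gene was in the count table (622 genes, so that members of a gene share its RNA value), the rank correlation of mean count with RNA level was 0.189, and that of count per kb with RNA level 0.0447, against 0.279 and 0.0659 on the autosomal arms.

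Genes of dosage compensation were among the members. Besides the roX1 peak, a member annotated to e(y)2 (chrX:11576061-11581380, 1539 counts) spanned the starts of roX2, nod and CG11695. A member of 7130 bp at mof, the acetyltransferase of the complex (chrX:5875991-5883120), had 1811 counts. The member of Sxl, the switch gene that prevents dosage compensation in females, had 419.2 counts. All 4 were called in both lists. RNA of roX1 was at 41.7, 41.5 and 39.9 CPM in insulin libraries, against 47.8, 50.2 and 55.6 CPM in vehicle libraries, and fell (log2 change -0.32, SE 0.07, edgeR adjusted p = 7.17e-05). RNA of roX2 was at 706, 756 and 699 CPM in insulin libraries, against 766, 802 and 781 CPM in vehicle libraries, and fell (log2 change -0.12, SE 0.03, edgeR adjusted p = 0.00178). Both roX RNAs were lower in every insulin library than in any vehicle library. Sxl was at 59.8, 60.7 and 62.0 CPM in insulin libraries, against 74.0, 70.4 and 70.9 CPM in vehicle libraries, likewise without overlap (log2 change -0.24, SE 0.05, edgeR adjusted p = 0.000168). RNA of mof was at 108, 104 and 114 CPM in insulin libraries, against 107, 114 and 111 CPM in vehicle libraries, with overlapping groups (log2 change -0.03, SE 0.04, edgeR adjusted p = 0.632). Among the autosomal genes of the complex msl-1 was at 186, 172 and 179.9 CPM in insulin libraries, against 159, 159 and 156 CPM in vehicle libraries, and rose (log2 change 0.18, SE 0.04, edgeR adjusted p = 0.000118), while msl-2, msl-3, mle and Clamp did not pass the test, with log2 changes of -0.05, -0.20, -0.06 and 0.02.

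X-linked promoter peaks were called after vehicle alone more often than autosomal ones. A merged peak counted as called after a treatment when a peak of that treatment's list overlapped it by at least 1 bp. Of the 875 members, 39 (4.46%) were called after insulin alone, 180 (20.6%) after vehicle alone and 656 (74.97%) after both. Over all merged peaks of the series 8.78% were called after insulin alone and 12.4% after vehicle alone. On the autosomal arms 6.55% of promoter peaks were called after insulin alone and 9.38% after vehicle alone, with single arms at 6.15% to 7.17% and 8.15% to 10.8%. Other X peaks had 9.02% after insulin alone and 19.4% after vehicle alone, against 13.8% and 13.0% of other autosomal peaks. Each list was called on the samples of a treatment together, so these counts have no replicate error.

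**Figure D3:**
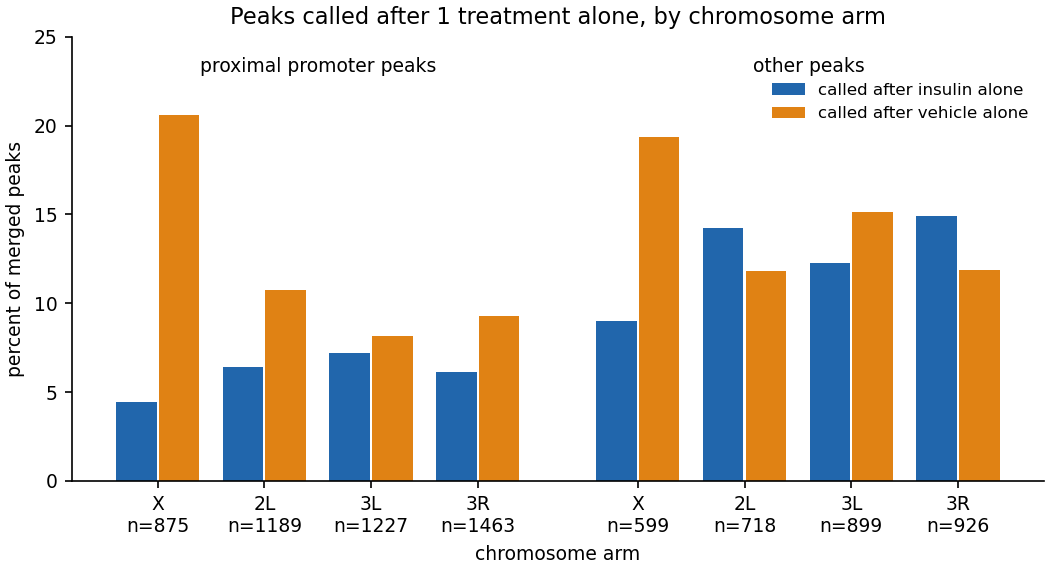
Percent of merged peaks called after insulin alone or vehicle alone, by chromosome arm, for proximal promoter peaks and for all other peaks. Of the X promoter peaks 20.6% were called after vehicle alone, against 8.15% to 10.8% on 2L, 3L and 3R.

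Calls after 1 treatment alone fell on narrow peaks with low counts, of which X had more: 34.7% of its promoter peaks were at most 500 bp wide, against 26.7% on the autosomal arms. Within that width 9.21% of X peaks were called after insulin alone and 44.7% after vehicle alone, against 18.4% and 27.4% of autosomal peaks. From 500 to 1000 bp the X shares were 3.11% and 14.53%, and the autosomal shares 4.39% and 5.68%. Among peaks with a mean count up to 171.0, 10.0% of X peaks were called after insulin alone and 45.7% after vehicle alone, against 24.1% and 35.04% of autosomal peaks. X thus had the larger vehicle-alone share within these classes of narrow and of low peaks. Among peaks above 396.9 counts per kb the order was the other way, with 0 of 76 X peaks called after vehicle alone, which allows a share of up to 3.95%, against 7.996% of autosomal peaks. Each list was also cut at its own median score. Then 26 members (2.97%) stood in the insulin list alone and 69 (7.89%) in the vehicle list alone, against 3.53% and 5.80% of autosomal promoter peaks. A peak called in both full lists counted here as alone when only 1 list kept it. These counts are therefore not a subset of the calls above. Under this limit the vehicle-alone share was 6.06% on 2L, 7.74% on 3L and 3.96% on 3R, so that X stood about level with 3L. The part of library depth, of peak calling and of chromosome copy number in these shares was not tested.

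The extent of the called peaks had the same side. The insulin list covered 784.3 kb of the members and the vehicle list 924.2 kb, a ratio of 0.849, against 0.934 on the autosomal arms (0.911 on 2L, 0.940 on 3L and 0.949 on 3R). More bases were covered in the insulin list in 193 members (22.1%) and in the vehicle list in 666 (76.1%), against 32.3% and 64.3% of autosomal promoter peaks. Within members called in both lists the median covered length was 700.0 bp in the insulin list and 830.0 bp in the vehicle list, against 780.0 and 850.0 bp on the autosomal arms.

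Among members called after insulin alone, the highest scores belonged to NetA, a Netrin guidance cue, drd, RpL17, a protein of the large ribosomal subunit, a peak of Ant2, and CG34330. Their mean counts were 116.4, 123.0, 110.5, 280.7 and 109.4. Among members called after vehicle alone they belonged to Clic, CG5010, CG1677, and the start peaks of CG9086 and CG32512, with mean counts of 150.5, 138.5, 121.4, 140.3 and 135.5. The peak annotated to CG1677 held the start of CG2059. An annotated start was spanned by 25.6% of members called after insulin alone, 71.7% of those called after vehicle alone and 73.8% of those called after both.

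The DRE core stood in 0 of the 39 windows called after insulin alone, which allows a share of up to 7.69%, against 22 of the 180 called after vehicle alone (12.2%). It stood in 30 of the 656 called after both (4.57%). The autosomal shares were 1.18% after insulin alone, 6.04% after vehicle alone and 3.50% after both. Over whole X peaks, which are wider where both lists called them, the DRE core stood in 27 of the 180 called after vehicle alone and 94 of the 656 called after both (14.3%), so that these shares were close. The GA repeat stood in 7.69% of members called after insulin alone (3 of 39), 5.00% of those called after vehicle alone and 9.45% of those called after both. In the window at the gene start the GA repeat shares were 15.4% (6 of 39), 5.00% and 8.54% in the same order, so that the order of the classes depended on the window.

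RNA rose and fell after insulin in each class of call, beside 27.0% higher and 23.1% lower over all genes tested. For members called after insulin alone 29 genes were tested, of which 8 rose and 13 fell, with a median log2 change of -0.12, against 52 rises and 37 falls among 177 autosomal genes (0.014). For members called after vehicle alone 163 genes were tested, of which 49 rose and 46 fell, with a median of -0.01, against 93 rises and 87 falls among 307 autosomal genes (-0.01). For members called in both lists 471 genes were tested, of which 148 rose and 128 fell, with a median of 0.0034, against 779 rises and 609 falls among 2377 autosomal genes (0.01). A gene with several members can stand in more than 1 of these classes. The promoter peak of RpL17 was called after insulin alone, while its RNA was at 1057, 1154 and 1064 CPM in insulin libraries, against 1309, 1325 and 1275 CPM in vehicle libraries, a fall (log2 change -0.26, SE 0.03, edgeR adjusted p = 5.62e-09). The promoter peak of Hsp60, a mitochondrial chaperonin, was called after vehicle alone, while its RNA was at 1041, 1102 and 1069 CPM in insulin libraries, against 687, 686 and 693 CPM in vehicle libraries, a rise (log2 change 0.64, SE 0.03, edgeR adjusted p = 9.10e-22). Peaks were also split into 4 classes of increasing RNA level, cut separately on X and on the autosomal arms, so the limits differed. The lowest class reached 31.7 CPM on X and 22.4 CPM on the autosomal arms, and the highest began at 196.8 and 160.1 CPM. From lowest to highest, 22.8%, 26.7%, 18.0% and 18.9% of X members were called after vehicle alone, against 12.0%, 11.7%, 8.94% and 5.54% of autosomal promoter peaks.

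Most genes (530 of 669) had 1 member, 98 had 2, and 41 had 3 or more. The gene of the Tousled-like kinase, tlk, which acts in chromatin assembly, had 9 members between positions 3739011 and 3781310, with mean counts of 133.3 to 2781 and 276.2 to 545.2 counts per kb. All 9 were called in both lists, 7 held a CA repeat in the central window, and the member printed above was the only one with a GA repeat there. RNA of tlk was at 443, 422 and 431 CPM in insulin libraries, against 419.9, 399 and 419.9 CPM in vehicle libraries, groups that did not overlap but did not pass the test (log2 change 0.07, SE 0.03, edgeR adjusted p = 0.0971). Hers, a repressor of histone genes, CG5004, Moe, the moesin that links actin to the membrane, and sgg, the GSK3 kinase of the insulin and Wnt pathways, had 5 members each. Moe was at 1945, 1959 and 1959 CPM in insulin libraries, against 1609, 1630.1 and 1694 CPM in vehicle libraries, a rise (log2 change 0.25, SE 0.03, edgeR adjusted p = 5.32e-10). RNA of sgg was at 125, 123 and 125 CPM in insulin libraries, against 126, 126 and 121 CPM in vehicle libraries, with overlapping groups (log2 change 0.00, SE 0.04, edgeR adjusted p = 0.999). The gene echinus, ec, had 4 members and fell, at 623, 607 and 642 CPM in insulin libraries, against 965, 943 and 939.8 CPM in vehicle libraries (log2 change -0.60, SE 0.03, edgeR adjusted p = 9.59e-21). CG42684 and CG17754 had 3 members each, all called after vehicle alone.

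Genes of X-linked promoter peaks had more RNA per gene than those of autosomal promoter peaks, and about the same per kb of exon. The median log2(CPM + 0.25) over 622 X genes minus that over 2866 autosomal genes was 0.39, 0.38 and 0.40 in insulin libraries, against 0.40, 0.35 and 0.40 in vehicle libraries. The means were 0.39 ± 0.0090 after insulin and 0.38 ± 0.030 after vehicle (SD, n = 3 each), or 1.31-fold and 1.30-fold, and the treatments overlapped. X genes had the greater total exon length per gene, with a median of 3014 bp against 2232 bp. Per kb of exon the difference was 0.025, -0.012 and 0.011 in insulin libraries, against 0.030, 0.0072 and 0.023 in vehicle libraries. Against single arms the CPM difference after insulin and after vehicle was 0.26 and 0.27 for 2L, 0.59 and 0.52 for 3L, and 0.32 and 0.30 for 3R. The CPM difference was larger between X and autosomal genes to which no proximal promoter peak was annotated, at 0.97 after insulin and 0.89 after vehicle. Such genes can still have a start inside a peak annotated to another gene. Per kb of exon their median was 9.18 CPM on X and 6.18 CPM on the autosomal arms, against 23.4 and 22.6 CPM for promoter genes.

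**Figure D4:**
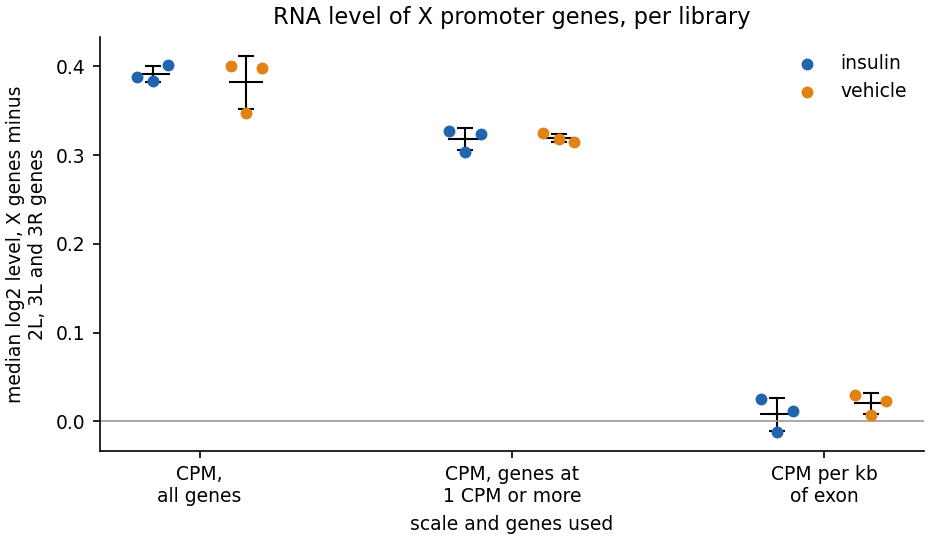
Median log2 RNA level of X promoter genes minus that of 2L, 3L and 3R promoter genes in each insulin and vehicle library, with mean and SD, for all genes, for genes at 1 CPM or more and per kb of exon. The mean difference over all genes was 0.39 after insulin and 0.38 after vehicle, and per kb it was 0.0080 and 0.020.

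Insulin changed the RNA of X-linked promoter genes in both directions, in shares close to those of autosomal promoter genes. Of the 669 genes 622 were in the count table and 608 passed the filter on low counts. By edgeR's quasi-likelihood test at an adjusted p under 0.05, 186 (30.6%) were higher and 170 (28.0%) lower after insulin, against 32.4% and 25.4% of autosomal promoter genes. Over all genes tested 27.0% were higher and 23.1% lower, and among X genes with no member annotated to them 24.0% and 20.1%. The median log2 change was -0.0011 for X promoter genes and 0.011 for autosomal ones. Beyond 2-fold, 8 of the 608 X genes were higher and 5 lower. The same counts were 36 and 11 of 2715 autosomal promoter genes, and 105 and 70 of all 8683 genes tested. The libraries of the treatments did not overlap for 390 of the 608 genes (64.1%), against 55.6% of all genes tested.

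The largest rises included mitochondrial carriers, enzymes of purine and proline metabolism and an RRP12-like gene. The ADP/ATP carrier sesB was at 2385, 2424 and 2322 CPM in insulin libraries, against 1105, 1135 and 1115 CPM in vehicle libraries (log2 change 1.09, SE 0.03, edgeR adjusted p = 1.19e-30). Its paralog Ant2 was at 71.2, 74.4 and 71.3 CPM in insulin libraries, against 32.3, 30.5 and 34.4 CPM in vehicle libraries (log2 change 1.15, SE 0.06, edgeR adjusted p = 6.70e-20). Both lie on the minus strand and overlap, and 1 member (chrX:10783561-10787110) holds both starts, so the split of reads between them is uncertain. The gene ras, IMP dehydrogenase of guanine nucleotide synthesis, was at 142, 129 and 145 CPM in insulin libraries, against 69.3, 67.0 and 65.8 CPM in vehicle libraries (log2 change 1.04, SE 0.05, edgeR adjusted p = 9.58e-23). Proline dehydrogenase, slgA, was at 336, 315 and 332 CPM in insulin libraries, against 158, 153 and 159 CPM in vehicle libraries (log2 change 1.06, SE 0.04, edgeR adjusted p = 8.47e-27). CG2691, which resembles the ribosome assembly factor RRP12 and whose member holds the DRE core printed above, was at 565, 568 and 579.9 CPM in insulin libraries, against 281, 287 and 294 CPM in vehicle libraries (log2 change 0.99, SE 0.03, edgeR adjusted p = 2.42e-27).

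CG3168 was at 158, 156 and 148 CPM in insulin libraries, against 68.2, 64.5 and 62.2 CPM in vehicle libraries (log2 change 1.25, SE 0.05), and CG3071 at 214, 232 and 219 CPM in insulin libraries, against 110.1, 102 and 113 CPM in vehicle libraries (log2 change 1.03, SE 0.04). CG15766 (log2 change 1.36, SE 0.08) and CG8010 (log2 change 0.96, SE 0.06) rose as well. The gene drop dead, drd, was low throughout, at 5.86, 5.35 and 6.45 CPM in insulin libraries, against 1.65, 2.96 and 2.28 CPM in vehicle libraries (log2 change 1.37, SE 0.22, edgeR adjusted p = 1.17e-06), and its peak was called after insulin alone.

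**Figure D5:**
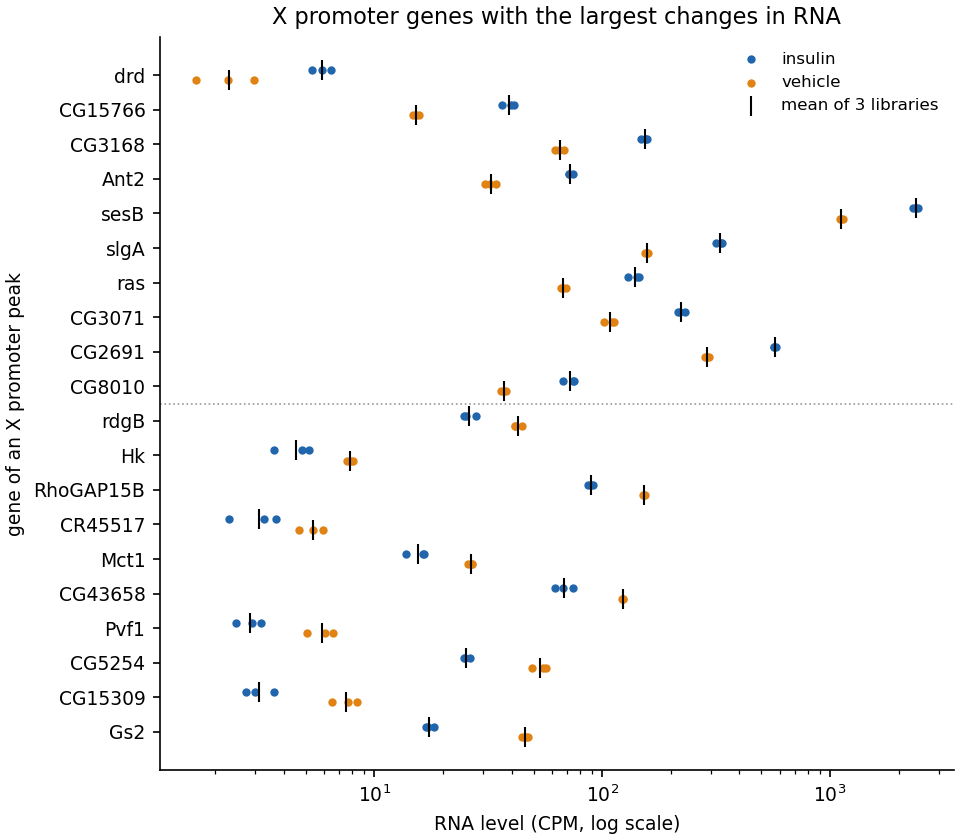
RNA level in CPM (log axis) of the 10 X promoter genes with the largest rises and the 10 with the largest falls after insulin, with a point per library and the mean as a bar. The choice required that the libraries of the treatments do not overlap and that the higher treatment averaged 5 CPM or more. Genes with larger changes at lower levels were thus left out. The most abundant gene shown is sesB, at 2322 to 2424 CPM after insulin.

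The largest falls included glutamine synthesis, transport and signaling genes. Gs2, glutamine synthetase 2, was at 17.3, 18.2 and 16.9 CPM in insulin libraries, against 47.1, 46.1 and 44.3 CPM in vehicle libraries (log2 change -1.39, SE 0.08, edgeR adjusted p = 3.36e-19). CG5254 was at 24.8, 26.3 and 25.0 CPM in insulin libraries, against 54.8, 49.0 and 56.9 CPM in vehicle libraries (log2 change -1.09, SE 0.07). CG15309, a yippee-like gene, was at 2.98, 3.61 and 2.74 CPM in insulin libraries, against 6.49, 7.65 and 8.35 CPM in vehicle libraries (log2 change -1.28, SE 0.19). Pvf1, a growth factor of the PDGF and VEGF type, was low, at 3.19, 2.89 and 2.47 CPM in insulin libraries, against 6.60, 5.06 and 6.07 CPM in vehicle libraries (log2 change -1.04, SE 0.20, edgeR adjusted p = 3.39e-05). RhoGAP15B, whose peak, printed above with its GA and CA repeats, was called after vehicle alone, was at 90.8, 89.7 and 86.8 CPM in insulin libraries, against 155, 152 and 152 CPM in vehicle libraries (log2 change -0.78, SE 0.04, edgeR adjusted p = 9.87e-20). Mct1, a monocarboxylate transporter, was at 13.8, 16.3 and 16.5 CPM in insulin libraries, against 25.9, 26.9 and 26.9 CPM in vehicle libraries (log2 change -0.79, SE 0.09). Further falls were those of CG43658 (log2 change -0.86, SE 0.05), the noncoding RNA CR45517 (log2 change -0.78, SE 0.21), the potassium channel subunit Hk (log2 change -0.77, SE 0.17) and the phosphatidylinositol transfer protein rdgB (log2 change -0.71, SE 0.08).

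Counts by pathway cover the tested X-linked genes that have a member. They are given beside the tested genes of the same list on the autosomal arms, with or without a proximal promoter peak. The X and autosomal sets were thus not chosen alike. On the autosomal arms 57.9% of tested genes with such a peak were called, against 42.8% of those without. Over all genes tested 27.0% were higher and 23.1% lower. Of the respiratory chain and mitochondrial carrier list, 6 of 6 X-linked genes rose (median log2 change 0.49), against 32 of 34 autosomal genes (0.45). Citrate synthase, kdn, was at 254, 239 and 268 CPM in insulin libraries, against 178, 175 and 179 CPM in vehicle libraries (log2 change 0.52, SE 0.04, edgeR adjusted p = 2.72e-15), and the cytochrome oxidase subunit CoVIb at 194, 199 and 194 CPM in insulin libraries, against 138, 139 and 147 CPM in vehicle libraries (log2 change 0.47, SE 0.04, edgeR adjusted p = 8.56e-14). Both mitochondrial ribosomal protein genes rose, mRpL14 (log2 change 0.73, SE 0.06) and tko (log2 change 0.66, SE 0.05), against 48 of 50 autosomal genes. Both aminoacyl-tRNA synthetase genes rose, Aats-his (log2 change 0.53, SE 0.04) and Aats-lys (log2 change 0.25, SE 0.06), against 11 of 14 autosomal genes.

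Of the cytosolic ribosomal protein genes, 7 of 10 fell and 0 rose (median log2 change -0.17), against 30 falls and 4 rises among 50 autosomal genes (-0.11). The small-subunit gene sta was at 1934, 2076 and 2007 CPM in insulin libraries, against 2507, 2508 and 2390.5 CPM in vehicle libraries (log2 change -0.30, SE 0.03, edgeR adjusted p = 1.06e-11). RpL22 was at 542, 575 and 576 CPM in insulin libraries, against 677, 596 and 649.5 CPM in vehicle libraries (log2 change -0.18, SE 0.04, edgeR adjusted p = 0.000531), and RpS28b at 1196, 1348 and 1232 CPM in insulin libraries, against 1385, 1426 and 1379 CPM in vehicle libraries, with a fall of similar size (log2 change -0.15, SE 0.03, edgeR adjusted p = 0.000827).

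Of the glycolysis, pentose phosphate and lipid genes, 5 of 6 rose and 1 fell, against 11 rises and 2 falls among 17 autosomal genes. Pgd, 6-phosphogluconate dehydrogenase, was at 297, 308 and 314 CPM in insulin libraries, against 214, 208 and 214 CPM in vehicle libraries (log2 change 0.53, SE 0.03, edgeR adjusted p = 4.57e-17). Hexokinase Hex-A (log2 change 0.31, SE 0.04) and ethanolamine kinase eas (log2 change 0.38, SE 0.06) rose, and sws, a phospholipase (log2 change -0.40, SE 0.05), fell. Of the nuclear pore, transport and RNA processing genes, 3 of 6 rose and 2 fell, against 29 rises and 2 falls among 38 autosomal genes. The gene sta, already counted above among the cytosolic ribosomal protein genes, stood in this list too and was 1 of the 2 falls. The nuclear transport GTPase Ran was at 686, 702 and 668 CPM in insulin libraries, against 465, 487 and 494 CPM in vehicle libraries (log2 change 0.51, SE 0.03, edgeR adjusted p = 1.78e-17), and both of its members were called after vehicle alone. Nup153 of the nuclear pore rose (log2 change 0.34, SE 0.04), and the splicing factor crn fell (log2 change -0.17, SE 0.04). Of the chaperone and stress genes 2 of 4 rose and 2 fell, against 12 rises and 7 falls among 25 autosomal genes. Besides Hsp60, the thioredoxin reductase Trxr-1 rose (log2 change 0.19, SE 0.03), while the chaperone of the endoplasmic reticulum Hsc70-3 fell (log2 change -0.11, SE 0.03).

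Of the insulin, TOR and Myc growth control genes, 1 of 6 rose and 3 fell, against 10 rises and 11 falls among 30 autosomal genes. The gene dm, which encodes Myc, a driver of ribosome production, was at 556, 533 and 541 CPM in insulin libraries, against 385, 404 and 387 CPM in vehicle libraries (log2 change 0.47, SE 0.03, edgeR adjusted p = 1.96e-16). Ilp6, an insulin-like peptide, was at 93.9, 95.1 and 92.2 CPM in insulin libraries, against 112, 105 and 106 CPM in vehicle libraries (log2 change -0.20, SE 0.04, edgeR adjusted p = 0.000198). Sik2, a salt-inducible kinase, was at 7.71, 8.81 and 6.31 CPM in insulin libraries, against 12.4, 14.1 and 10.5 CPM in vehicle libraries (log2 change -0.68, SE 0.14, edgeR adjusted p = 6.60e-05). Of the ERK, Notch, Wnt and JAK/STAT genes, 3 of 15 rose and 3 fell, against 7 rises and 4 falls among 20 autosomal genes. The BMP antagonist sog (log2 change 0.45, SE 0.08) and the ecdysone-induced factor br (log2 change 0.24, SE 0.05) rose, and egh, an enzyme of glycosphingolipid synthesis, fell (log2 change -0.32, SE 0.04). Of the cell cycle genes 1 of 7 rose and 2 fell, against 6 rises and 14 falls among 35 autosomal genes. CycD, a cyclin of growth and cell cycle entry, was at 112, 113 and 112 CPM in insulin libraries, against 84.8, 91.7 and 83.3 CPM in vehicle libraries (log2 change 0.38, SE 0.04, edgeR adjusted p = 1.20e-09), and the kinetochore gene Zw10 fell (log2 change -0.15, SE 0.04). Both autophagy and lysosome genes rose, among them the proton pump subunit VhaAC39-1 (log2 change 0.22, SE 0.03), against 5 rises and 12 falls among 26 autosomal genes. Both tested immune genes fell, among them the kinase Tak1 (log2 change -0.26, SE 0.04), against 19 of 27 autosomal genes. The single proteasome gene with a member, Rpt6, was higher (log2 change 0.13, SE 0.05, edgeR adjusted p = 0.0307). Among the named genes, 6 calls counted in these lists were lost with DESeq2 on all libraries (adjusted p of 0.053 to 0.159) and in some edgeR fits that left out a library. With the library left out that raised it most, the adjusted p of edgeR became 0.161 for Mnt (without insulin 2), 0.126 for PGRP-SA (without insulin 3), 0.19 for Rpt6 (without insulin 3), 0.134 for Ubi-p5E (without insulin 3), 0.247 for car (without vehicle 2) and 0.131 for Klp10A (without vehicle 3). The counts of their lists, growth control, immune, proteasome, chaperone, autophagy and cell cycle, rest on these calls in part.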

How the data were processed

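Insulin and vehicle were compared in S2 cells with 3 ATAC-seq and 3 RNA-seq samples per treatment. The deposited RNA-seq counts were raw reads per gene, made by the authors with STAR on BDGP6 and stranded featureCounts. The ATAC-seq signal was the authors' mean over all samples of counts normalized with DESeq2, in merged peaks annotated with ChIPseeker, after alignment to dm6 with Novoalign, where reads with several matches were placed at random. The peak score was deposited with 1 list per treatment, called by the authors on its samples together. It served only to order the peaks of each list and to set the limit at the median score. The authors' columns of fold changes and p-values between treatments were not used.

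RNA was tested with edgeR 4.0.16 (R 4.3.3, limma 3.58.1; TMM, filterByExpr, robust quasi-likelihood test, Benjamini-Hochberg adjustment over the 8683 of 10287 genes that passed, threshold 0.05), after a check on simulated data. Libraries were numbered in column order, and CPM used TMM factors. Members, lists and tests were chosen with earlier results of these data known. Named genes were those of dosage compensation, the 10 largest rises and falls in RNA where libraries did not overlap and the higher treatment averaged 5 CPM or more, up to 4 genes per list with the smallest adjusted p, the 10 highest and 5 lowest mean counts, the 5 highest scores among peaks called after each treatment alone, and genes with 3 or more members. Motifs were searched on both strands of dm6 in the central 300 bp, and the window of 250 bases before to 50 after the gene start was an alternative chosen after seeing the data. Other alternatives were DESeq2 1.42.0, other size factors, no filter, leaving out each library, RNA per kb of exon, a minimum of 1 CPM, count per bp, a score limit, 50% overlap and whole-peak motif search. Peaks of 2R were not used here. Limits for a count of 0 cover counting error only.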

Additional observations from a re-analysis of the deposited data

How the results depend on the processing

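No paired analysis was possible because the count columns carry no replicate number and the ATAC-seq values are pooled. X promoter genes called higher after insulin numbered 164 to 182 and called lower 153 to 169 when 1 library was left out. These were 26.9% to 29.9% and 25.1% to 27.7% of X promoter genes tested, against 23.7% to 25.0% and 18.9% to 21.8% of all genes tested. DESeq2 called 154 higher and 132 lower, against 1861 and 1351 of all 8683 genes. RLE size factors gave 183 and 173, against 2325 and 2022 of 8683. No filter on low counts gave 176 and 173, against 2237 and 2037 of 10287. With DESeq2, RLE size factors and no filter, 285 to 353 of the calls were shared with the reported ones. Of 89 called genes among the 108 named and tested, 78 kept their call under every alternative run, 11 lost it under some and none changed direction. The RNA level of X relative to autosomal promoter genes moved to 0.3181 after insulin and 0.3192 after vehicle for genes at 1 CPM or more, and to 0.0080 and 0.0201 per kb of exon, where exon length enters by construction. With 1 library left out it was 0.3862 to 0.3949 after insulin and 0.3728 to 0.3993 after vehicle. The ATAC-seq count ratio of X to autosomes was 0.8765 per bp and 0.8184 for peaks called in both lists, and the cause of this last move was not tested. With each list cut at its median score, 69 members stood in the vehicle list alone, which can include peaks called in both full lists. Over whole peaks, a longer search space, GA repeats stood in 20.5%, CA repeats in 39.8% and the DRE core in 13.8% of members, and in the window at the gene start CA repeats stood in 11.3% and the DRE core in 11.5%, for which the cause was not tested. X stayed above the autosomal share for these 3 motifs in every window. For the pooled ATAC-seq values no sample spread can be given.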
